A study of Mus musculus with 4 samples.

Results

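Fc receptors are the cell surface proteins with which immune cells bind antibodies, and 7 mouse genes that encode their chains were followed through CD45+ cells of normal skin and of skin tumors. The genes were taken as a fixed list: Fcgr1, Fcgr3 and Fcgr4 for the activating receptors of IgG, Fcgr2b for the inhibitory receptor of IgG, Fcer1g for the signaling chain that the activating receptors share, and Fcer1a and Ms4a2 for the other chains of the high-affinity IgE receptor. They are 7 of the 31053 genes in the deposited tables, of which 24179 had at least 1 UMI (unique molecular identifier, a tag that counts each captured RNA molecule once) in the cells analysed.

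Activating Fc receptors reach the cell surface with the Fcer1g chain, whose ITAM motif recruits the kinase Syk once antibody-coated material clusters the receptor. Fcgr2b carries an ITIM motif instead, recruits the phosphatase SHIP1 (Inpp5d) and dampens that signal, so cells of the myeloid lineage commonly hold receptors of both kinds. In skin, mast cells are armed with IgE through a complex of Fcer1a, which binds IgE, Ms4a2, which amplifies the signal, and Fcer1g.

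The tumor samples were 2 skin tumors grown subcutaneously on the flank of C57/BL6 mice from injected cells of the 2323 line, and the controls were 2 skins of uninoculated C57 mice. The 2323 line is a single line from a tumor in the escape phase of a K14rtTA/tetOCre mouse model, in which the keratin 14 promoter drives the recombination in epidermal cells. The inoculated mice were females and males of 8 to 10 weeks, and tumors were taken about 2 weeks after injection. Live CD45+ cells were sorted after collagenase digestion, and each sample gave 1 droplet library read from the 3′ end of transcripts, so that each group holds 2 libraries and the p-values measure the spread between these libraries.

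The libraries held 34893543 to 73904272 UMIs in 2258 to 5176 cells, and 12395 cells were analysed after filtering, with a median depth of 10610 to 13361.5 UMIs per kept cell and library. Between 1 and 7 cell barcodes were shared by any pair of libraries. Cells were assigned to 18 types by UMIs of marker genes, none of which is an Fc receptor gene, and 62.9% of cells passed exactly 1 gate. Cells with keratin or collagen markers made up 2.26% and 34.3% of cells passed no gate. All levels are UMIs of a gene per 10000 UMIs summed over the cells of a type in a library, and libraries are always listed as control skin 1, control skin 2, tumor 1 and tumor 2. Such levels do not correct for transcript length or capture, so they are compared between samples and cell types and not between genes.

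Of the 7 genes, 5 lie on chromosome 1, and all coordinates below are those of GRCm38 with the GENCODE gene models. Fcgr2b (ENSMUSG00000026656, chr1:170958617-170976547, minus strand), Fcgr4 (ENSMUSG00000059089, chr1:171018920-171029761, plus strand), Fcgr3 (ENSMUSG00000059498, chr1:171051174-171064935, minus strand) and Fcer1g (ENSMUSG00000058715, chr1:171229572-171234365, minus strand) are neighbours within 275.749 kb. Fcer1a (ENSMUSG00000005339) is at chr1:173221284-173227214 on the minus strand. Fcgr1 (ENSMUSG00000015947) is at chr3:96282909-96293969 and Ms4a2 (ENSMUSG00000024680) at chr19:11615523-11623719, both on the minus strand. An antisense gene in the count tables, Gm38204, overlaps the 5′ part of Fcgr2b on the opposite strand. No run of 31 bases was shared by the last 500 bases of any 2 of these genes, where 3′ reads fall, and elsewhere in the transcripts only Fcgr2b and Fcgr3 shared such runs, 233 in number.

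Promoters are printed for the IgG receptor genes with the largest differences between the groups and for Fcer1a and Ms4a2 of the IgE receptor. Each is the 250 bases before the RefSeq start of the gene on GRCm38.p6, written 5′ to 3′ on the strand of the gene, with capitals for matches on either strand to 2 motifs, the core of the PU.1 site GAGGAA and the GATA site AGATAA.
Fcgr2b, chr1:170976072-170976321, minus strand: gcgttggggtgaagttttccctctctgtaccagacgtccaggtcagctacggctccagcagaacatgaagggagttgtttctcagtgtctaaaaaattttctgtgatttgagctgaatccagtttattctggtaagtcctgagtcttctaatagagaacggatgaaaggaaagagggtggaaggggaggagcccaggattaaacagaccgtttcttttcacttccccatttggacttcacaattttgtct
Fcgr4, chr1:171018676-171018925, plus strand: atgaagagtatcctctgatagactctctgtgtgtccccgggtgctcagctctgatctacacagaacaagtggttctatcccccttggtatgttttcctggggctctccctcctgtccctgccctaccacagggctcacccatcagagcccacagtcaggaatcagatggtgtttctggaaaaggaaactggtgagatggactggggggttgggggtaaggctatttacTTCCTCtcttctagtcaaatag
Fcgr1, chr3:96293970-96294219, minus strand: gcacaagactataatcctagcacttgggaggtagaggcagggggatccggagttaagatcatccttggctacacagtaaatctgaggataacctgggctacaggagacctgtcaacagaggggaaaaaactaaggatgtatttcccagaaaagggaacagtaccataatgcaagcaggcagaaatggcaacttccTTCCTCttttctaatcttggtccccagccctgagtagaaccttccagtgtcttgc
Fcer1a, chr1:173227230-173227479, minus strand: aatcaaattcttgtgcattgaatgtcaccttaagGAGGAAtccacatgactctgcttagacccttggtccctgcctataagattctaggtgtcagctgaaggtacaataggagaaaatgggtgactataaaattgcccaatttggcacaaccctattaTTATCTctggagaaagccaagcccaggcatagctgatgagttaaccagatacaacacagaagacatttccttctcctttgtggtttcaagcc
Ms4a2, chr19:11623720-11623969, minus strand: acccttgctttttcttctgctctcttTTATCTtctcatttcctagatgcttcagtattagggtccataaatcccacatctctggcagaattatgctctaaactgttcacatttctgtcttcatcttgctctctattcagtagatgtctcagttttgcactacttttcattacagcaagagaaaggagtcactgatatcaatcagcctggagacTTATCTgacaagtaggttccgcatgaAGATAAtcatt

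The PU.1 core was found in 23.3% of 32851 RefSeq promoters of the same length and, among the 7 genes, in Fcgr1, Fcgr3, Fcgr4 and Fcer1a, and in Fcgr4 it begins 22 bases before the start. The GATA site was found in 9.99% of promoters and, among the 7 genes, in Fcer1a and Ms4a2, with 3 matches in Ms4a2. Neither pattern was found in these windows of Fcgr2b and Fcer1g. These matches describe the printed letters only.

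Over all sorted cells the level of each Fcgr gene was higher in both tumors than in both control skins, and the number of macrophages moved with it. For Fcgr2b the levels were 0.727, 1.05, 3.92 and 2.90 UMIs per 10000, and for Fcgr4 they were 0.0445, 0.135, 2.14 and 0.915. Cells in the macrophage gate, which asks for C1q genes and general macrophage markers, were 2.04% and 6.35% of cells in the control skins and 41.1% and 32.96% in the tumors. Macrophages held 27.8% and 36.7% of the Fcgr4 UMIs of the control skins and 92.8% and 72.4% of those of the tumors. For Fcgr2b the share held by macrophages was 10.9% and 18.4% in control skins against 87.4% and 69.4% in tumors, and cells outside all gates held 49.9% and 47.4% of its UMIs in control skins. The levels below are therefore given within cell types.

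**Figure D1:**
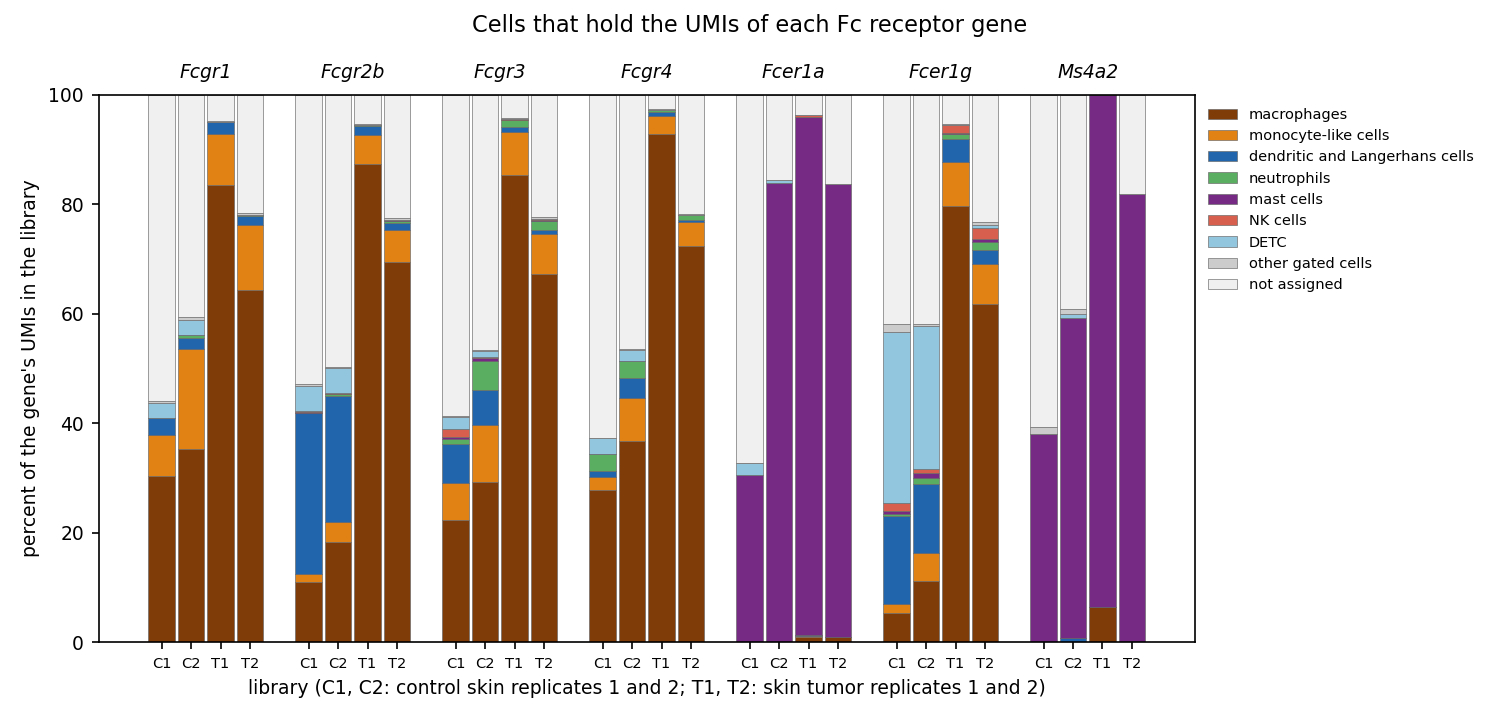
Share of the UMIs of each Fc receptor gene that came from each cell type, as stacked bars in percent, with 1 bar per library. Macrophages hold 92.8% and 72.4% of Fcgr4 UMIs in the tumors against 27.8% and 36.7% in control skins, while mast cells hold most Fcer1a UMIs in 3 of 4 libraries.

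In 10 cell types with at least 10 cells in every library, the tumors were compared with the control skins by edgeR's quasi-likelihood test on UMIs summed per library, with Benjamini-Hochberg adjustment over all genes tested in the type and a threshold of 0.05. Of 70 pairs of gene and cell type, 30 passed the filter on low counts, and a gene could pass through 1 group alone. Of these 30, 1 was called higher in tumors, 1 was called lower, both of them Fcgr2b, and 28 were not called. Over all genes of these types 2829 of 66610 tests were called, or 4.25%. Of the 30 pairs, 9 had an unadjusted p under 0.05. Over all genes this held for 155 of 3251 in neutrophils, the fewest, and for 2187 of 8079 in CD8 T cells, the most. The largest pair that the filter left out held 82 UMIs over the 4 libraries. With 2 libraries in each group the smallest p of an exact permutation test is 0.333, so that the fit across genes is the test used throughout. In these 10 types the libraries of the groups did not overlap for 36.6% to 60.1% of all genes tested.

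Fcgr2b, the inhibitory receptor, was higher in the monocyte-like cells of tumors and lower in their cDC2, the conventional dendritic cells of type 2. In monocyte-like cells, which are rich in Lyz2, Plac8 and Ly6c2 and low in C1q, its level was 1.18, 1.17, 3.26 and 3.19 UMIs per 10000, from 45, 158, 1339 and 564 UMIs. Both tumors lay above both control skins, and the spread within each group was small beside the gap between them. The log2 change was 1.37 ± 0.20 (SE, n = 2 and 2 libraries) with an edgeR adjusted p of 0.0249. It was the single Fc receptor gene called of the 5 tested in monocyte-like cells, where 0.724% of all genes were called.

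The share of monocyte-like cells with an Fcgr2b UMI was 48.0%, 64.9%, 80.2% and 78.5%, at median depths of 16873, 13239, 10927 and 12004 UMIs, so that the tumors had the higher shares at the lower depths. After each cell was thinned to 1000 UMIs the shares were 16.0%, 12.4%, 22.3% and 25.4%. In CD8 T cells, where the gene did not pass the filter on low counts, 0%, 4%, 6.14% and 13.2% of cells had a UMI at full depth. Their median depths were 9869 to 13091 UMIs, and at most 0.361% of cells had a UMI after thinning. The call was lost without control skin 1 (adjusted p = 0.164), without control skin 2 (adjusted p = 0.206) and on thinned cells (adjusted p = 0.25), while the log2 change stayed between 1.26 and 1.46 over 13 alternatives. Where a library was left out, here and below, the remaining one of its group was assumed to vary like the other group.

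In cDC2 the Fcgr2b level was 2.14, 2.46, 0.996 and 1.18 UMIs per 10000, from 172, 253, 268 and 89 UMIs in 34, 49, 149 and 46 cells. Both control skins were thus above both tumors. The log2 change was -1.21 ± 0.25 (SE, n = 2 and 2 libraries) with an edgeR adjusted p of 0.0367, and Fcgr2b was the only one called of the 4 Fc receptor genes tested in cDC2, where 4.61% of all genes were called. A UMI of Fcgr2b was found in 88.2% of cDC2 in control skin 1 (95% Clopper-Pearson interval 72.5% to 96.7%), 83.7% in control skin 2 (70.3% to 92.7%), 54.4% in tumor 1 (46.0% to 62.5%) and 60.9% in tumor 2 (45.4% to 74.9%). Median depths were 22424, 19092, 16871 and 16173.5 UMIs, and after thinning the shares were 11.8%, 18.4%, 12.1% and 6.52%, which overlap between the groups.

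Markers of neighbouring cell types moved in the same direction in cDC2. The summed level of the 9 macrophage markers, of which 8 or 9 had UMIs in each library, was 9.53, 10.9, 4.71 and 4.59 UMIs per 10000, with Folr2 at 0 in tumor 2. The 9 monocyte markers summed to 33.3, 33.8, 20.5 and 21.1, and the 4 Langerhans cell markers to 2.5, 2.70, 0.602 and 0.767, with H2-M2 at 0 in tumor 1 and Cd207 at 0 in tumor 2. The 6 cDC2 markers themselves summed to 20.9, 23.0, 15.7 and 15.1, and the part of these differences in the Fcgr2b result was not tested. Under stricter gates the log2 change was -0.98 (adjusted p = 0.124), and the call was also lost without control skin 1 (adjusted p = 0.193) or control skin 2 (adjusted p = 0.232).

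In macrophages the Fcgr2b level was 2.58, 2.65, 5.96 and 4.65 UMIs per 10000. Both tumors were above both control skins, but the log2 change of 0.82 ± 0.20 (SE, n = 2 and 2) had an edgeR adjusted p of 0.169 and did not pass the threshold. Over 13 alternatives the log2 change ranged from 0.70 to 1.06 (0.94 without tumor 2), and 3 of them passed. None of the 5 Fc receptor genes tested was called in macrophages, where 0.341% of all genes were. The share of macrophages with an Fcgr2b UMI was 88.1%, 74.7%, 96.0% and 95.2%, and 13.6%, 21.6%, 39.5% and 35.6% after thinning. Macrophages with an Arg1 UMI had a level of 6.97 in tumor 1 and 5.07 in tumor 2, against 5.80 and 4.41 in those without.

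Among the other cells, Langerhans cells of the control skins had 0.963 and 1.14 UMIs of Fcgr2b per 10000, and they numbered 1 and 5 in the tumors, too few for a level. In cDC1 the level was 0.863, 1.42, 0.728 and 0.147, with only 6 UMIs behind the last value. The log2 change of -1.34 ± 0.57 (SE, n = 2 and 2) had an edgeR adjusted p of 0.186, and neither of the 2 Fc receptor genes tested was called in cDC1, where 5.38% of all genes were. The change ranged from -3.05 without tumor 1 to -0.80 without tumor 2. The order of the 3 highest of the tested types depended on the group. In control skins it was macrophages (2.58 and 2.65), cDC2 (2.14 and 2.46) and monocyte-like cells (1.18 and 1.17) by the mean. In tumors it was macrophages (5.96 and 4.65), monocyte-like cells (3.26 and 3.19) and cDC2 (0.996 and 1.18). Among these 3, the libraries of neighbouring types did not overlap in either group. The third type did overlap with the next. In control skins cDC1 (0.863 and 1.42) lay on both sides of monocyte-like cells, and in tumors neutrophils reached 1.003.

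**Figure D2:**
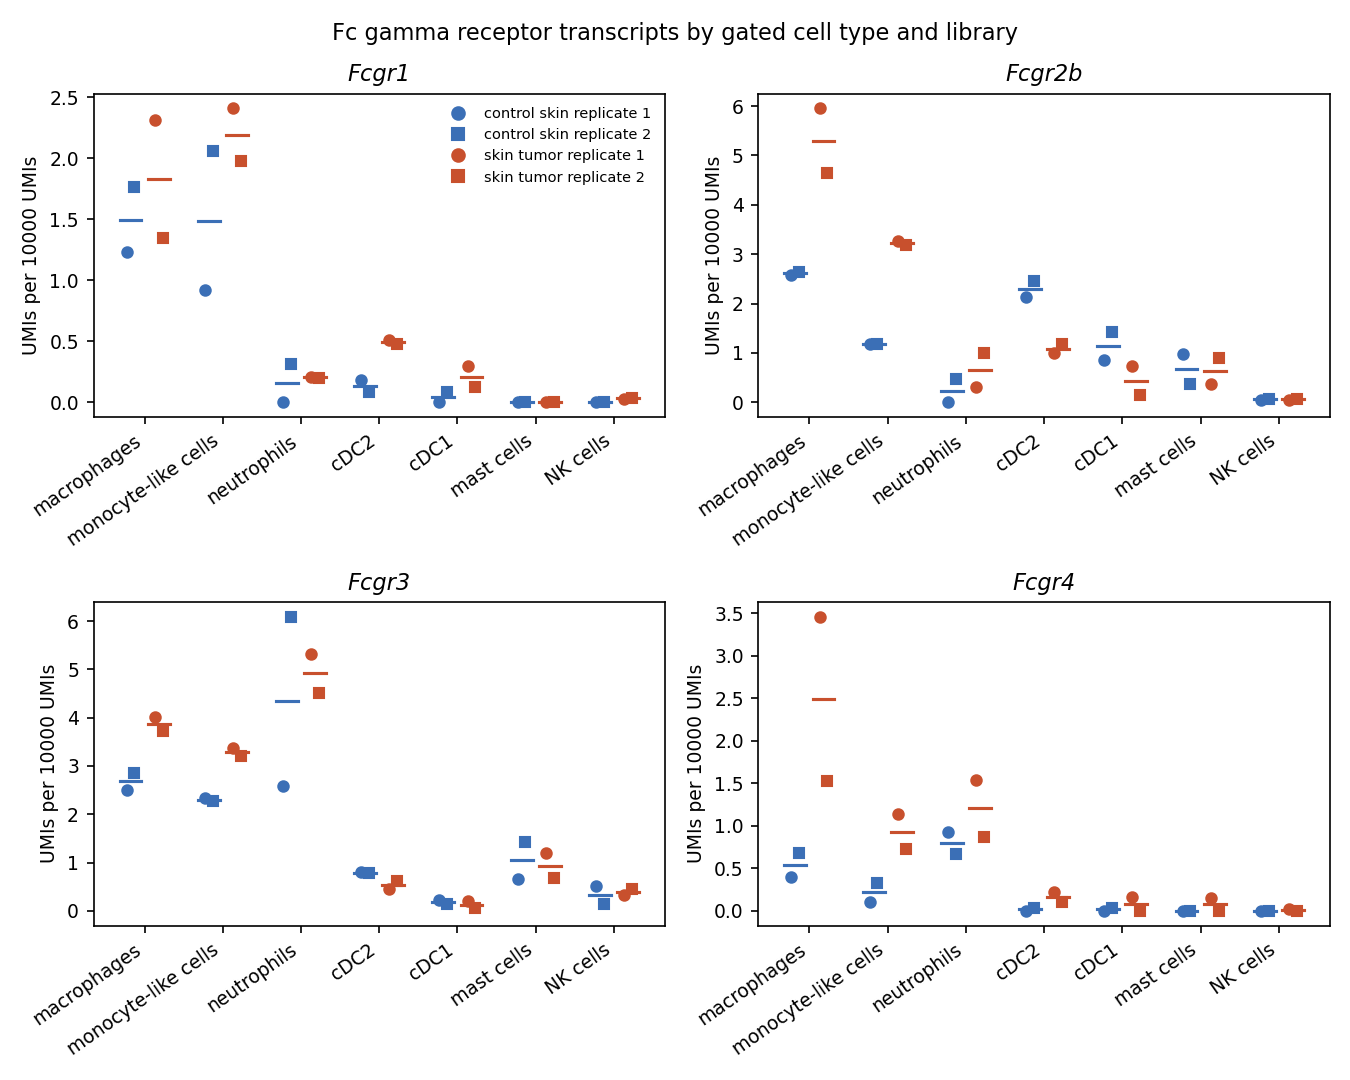
Levels of the 4 IgG receptor genes in 7 cell types, in UMIs per 10000 UMIs of the type, with 1 point per library and bars at the group means. Fcgr2b points of the tumors lie above those of the control skins in macrophages and monocyte-like cells (3.26 and 3.19 against 1.18 and 1.17) and below them in cDC2 (0.996 and 1.18 against 2.14 and 2.46).

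Fcgr4, an activating receptor that binds the IgG2 subclasses of the mouse, was found in macrophages, neutrophils and monocyte-like cells. In macrophages its level was 0.402, 0.677, 3.46 and 1.53 UMIs per 10000, from 47, 205, 13092 and 2155 UMIs. Both tumors were above both control skins, and tumor 1 was more than 2 times as high as tumor 2. The log2 change was 1.95 ± 0.42 (SE, n = 2 and 2) and did not pass the threshold (edgeR adjusted p = 0.134), although DESeq2 called it (adjusted p = 0.000394). Of 13 alternatives, 4 passed the threshold. With a library left out the log2 change ranged from 1.33 (without tumor 1) to 2.48, and it was 2.39 without tumor 2.

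A UMI of Fcgr4 was found in 42.4% of macrophages in control skin 1 (29.6% to 55.9%), 42.6% in control skin 2 (35.5% to 49.995%), 86.7% in tumor 1 (85.1% to 88.2%) and 72.5% in tumor 2 (68.9% to 75.9%), at median depths of 17612, 13805, 19328 and 19956 UMIs. After thinning the shares were 3.39%, 6.84%, 25.9% and 12.9%, still higher in both tumors. In CD8 T cells at most 2.63% of cells had an Fcgr4 UMI at full depth and none after thinning. Unlike Fcgr2b and Fcgr3, Fcgr4 was lower in tumor macrophages with an Arg1 UMI than in those without. Its level was 3.25 against 3.49 in tumor 1 and 1.29 against 1.66 in tumor 2. Fcgr1 was also lower in those with an Arg1 UMI, with 2.22 against 2.33 in tumor 1 and 1.24 against 1.40 in tumor 2. On thinned cells Fcgr4 was at 3.35 against 3.44 in tumor 1, but at 1.75 against 1.40 in tumor 2, the other way. The differences were not tested.

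In monocyte-like cells the Fcgr4 level was 0.105, 0.327, 1.13 and 0.729 UMIs per 10000, with only 4 UMIs in control skin 1. The log2 change of 1.78 ± 0.41 (SE, n = 2 and 2) had an edgeR adjusted p of 0.100 and depended on the libraries used. It was 1.44 without tumor 1, 2.04 without tumor 2, 1.40 without control skin 1 and 3.11 without control skin 2. Of 12 alternatives, 4 passed the threshold. In neutrophils the levels of 0.922, 0.664, 1.54 and 0.869 overlapped between the groups, and the log2 change of 0.65 had an adjusted p of 0.987. None of the 4 Fc receptor genes tested was called in neutrophils, and the background was 0.0% because edgeR called none of 3251 genes there; 155 had an unadjusted p under 0.05, and DESeq2 called 0. The median neutrophil held 4297, 4049, 4131 and 2923 UMIs, the lowest depth but for mast cells among the tested types.

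Fcgr1, the high-affinity receptor of IgG and a common marker of macrophages, had levels in macrophages that overlapped between the groups. These were 1.23, 1.77, 2.32 and 1.35 UMIs per 10000, and the log2 change was 0.07. In monocyte-like cells they were 0.919, 2.06, 2.41 and 1.98, with a log2 change of 0.39 (edgeR adjusted p = 0.724) that turned to -0.025 without control skin 1. Control skin 2 lay within the range of the tumors in both cell types, and control skin 1 was lowest in both.

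In cDC2 the Fcgr1 level was lower than in macrophages, at 0.187, 0.0876, 0.509 and 0.476 UMIs per 10000, from 15, 9, 137 and 36 UMIs. Both tumors were above both control skins, opposite to Fcgr2b in the same cells. The log2 change of 1.75 ± 0.41 (SE, n = 2 and 2) missed the threshold with an edgeR adjusted p of 0.0541, and it passed with 2 of the settings that keep all libraries, total UMIs without TMM (adjusted p = 0.0482) and no filter on low counts (adjusted p = 0.00148). With a library left out the log2 change ranged from 1.23 to 2.36, with 1.76 without tumor 1 and 1.70 without tumor 2. A UMI was found in 11.8%, 12.2%, 37.6% and 26.1% of cDC2, and after thinning in 0%, 0%, 2.68% and 2.17%, too few cells to read a change from. The sum of the macrophage markers in the same cells, given above, was lower in the tumors. The cDC2 gate left out cells rich in C1q genes, so part of that sum is bounded by the gate. In CD8 T cells, under the same limit, C1qa was at 0.0391, 0.0520, 0.202 and 0.280 UMIs per 10000, higher in both tumors. In mast cells it was at 0, 0.0753, 0.0743 and 0.0753. Fcgr4 in these cDC2 was at 0, 0.0389, 0.216 and 0.106 UMIs per 10000, from 0, 4, 58 and 8 UMIs. The part of macrophage RNA in the Fcgr1 values was not tested.

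Across all 4 libraries Fcgr1 averaged 1.84 ± 0.64 (SD, n = 4) in monocyte-like cells and 1.67 ± 0.49 in macrophages, which did not differ beyond their spread, and the next type, cDC2 with 0.315 ± 0.21, lay beyond the sum of the SDs. No UMI of Fcgr1 was found in mast cells of any library, which allows a level of up to 0.223 to 0.493 UMIs per 10000 (3 counts per library).

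Fcgr3, the low-affinity activating receptor, was highest on average in neutrophils, with 4.63 ± 1.51 UMIs per 10000 (SD, n = 4), followed by macrophages with 3.28 ± 0.71 and monocyte-like cells with 2.80 ± 0.58. These 3 did not differ beyond their spread, whereas mast cells with 0.989 ± 0.38 lay beyond it. In macrophages the levels were 2.51, 2.85, 4.02 and 3.73, and in monocyte-like cells 2.34, 2.27, 3.38 and 3.22. Both tumors were above both control skins in each of these types, with log2 changes of 0.33 (edgeR adjusted p = 0.567) and 0.43 ± 0.19 (adjusted p = 0.443) that were not called.

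In neutrophils the Fcgr3 levels of 2.58, 6.09, 5.32 and 4.51 overlapped between the groups, and the lowest rested on 14 UMIs in 11 cells. In cDC2 they were 0.796, 0.788, 0.442 and 0.608, lower in both tumors. The log2 change there was -0.74 ± 0.30 (edgeR adjusted p = 0.18), 0.38 under stricter gates and -1.06 without tumor 2. NK cells use Fcgr3 to kill antibody-coated targets, and here its level in them was 0.523, 0.148, 0.318 and 0.456, from 19, 4, 32 and 24 UMIs. This was 5.18% to 20.8% of the macrophage level, while Lyz2, an abundant myeloid transcript that NK cells should lack, was at 0.114% to 0.906% of its macrophage level. The NK cell gate left out cells rich in Lyz2, so its low level here is partly set by the gate. Neither of the 2 Fc receptor genes tested in NK cells was called, against 2.08% of all genes.

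The mixture of the 4 IgG receptor transcripts within a cell type also differed between the groups, but not always in the direction of the single genes. In cDC2, Fcgr2b made up 68.5% and 72.9% of the UMIs of the 4 genes in control skins and 46.0% and 49.7% in tumors, while Fcgr1 made up 5.98% and 2.59% against 23.5% and 20.1%. In macrophages, Fcgr4 made up 5.97% and 8.52% in control skins and 22.0% and 13.6% in tumors. Fcgr2b made up 33.3% to 41.3% of the macrophage UMIs in all 4 libraries, although its level was higher in both tumors. In monocyte-like cells, Fcgr3 made up 51.4% and 38.9% in control skins and 33.2% and 35.3% in tumors, although its level was higher in both tumors. These shares come from the same UMIs as the levels above and were not tested.

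Single macrophages mostly held several of these transcripts. All 4 genes had a UMI in 33.9% and 28.9% of macrophages in control skins and in 74.0% and 56.8% in tumors, and none of the 4 did in 5.08%, 8.95%, 0.641% and 1.40%. Median depths of macrophages were 17612, 13805, 19328 and 19956 UMIs, higher in both tumors, and the part of depth in these shares was not tested. UMIs of both Fcgr2b and Fcgr3, an inhibitory and an activating receptor, were found together in 81.4%, 67.4%, 90.2% and 90.1% of macrophages. In monocyte-like cells all 4 genes were found in 8%, 10.3%, 36.2% and 26.9% of cells, although their median depth was lower in the tumors.

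Fcer1g, the shared signaling chain, was found at high levels in many cell types and was not called in any of them in the reported fit. All 10 tested types passed the filter, 0 were called by edgeR, and the lowest unadjusted p was 0.101. Its level was 24.1, 25.7, 19.0 and 15.1 UMIs per 10000 in mast cells, 17.7, 17.8, 21.3 and 15.5 in neutrophils, 13.5, 14.0, 18.4 and 14.2 in macrophages and 12.2, 14.2, 17.0 and 13.5 in monocyte-like cells. The groups overlapped in neutrophils and monocyte-like cells. In mast cells both tumors were lower, and the log2 change was -0.27 (adjusted p = 0.727).

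Some lymphoid cells also held Fcer1g at high levels. NK cells had 11.997, 10.5, 11.4 and 11.6 UMIs per 10000, and dendritic epidermal T cells (DETC), the γδ T cells of mouse epidermis, had 14.3 and 13.1 in control skins and 9.56 in tumor 2, from 21 cells. DETC gave 31.3% and 26.1% of all Fcer1g UMIs of the control skins and at most 0.548% of those of the tumors, where macrophages gave 79.7% and 61.7%. In cDC2 the level was 9.77, 8.67, 8.90 and 8.49, and in Langerhans cells of the control skins 6.18 and 6.23. NK cells with a mean of 11.4, cDC2 with 8.96 and Langerhans cells with 6.21 each differed from the next lower type beyond the sum of the SDs, while the 6 types from mast cells down to NK cells did not differ from their neighbours.

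In T cells other than DETC, Fcer1g was low and varied between libraries. CD8 T cells had 0.848, 0.884, 0.197 and 0.940 UMIs per 10000, with a log2 change of -1.08 (edgeR adjusted p = 0.279) in a type where 11.1% of all genes were called. Leaving out 1 library moved it from -2.27 without tumor 2 to -0.025 without tumor 1. Of 12 alternatives, 2 passed the threshold. Regulatory T cells (Treg) had 0.556, 0.0427, 0.373 and 1.14, with a log2 change of 1.21 (adjusted p = 0.402) where 4.22% were called. With a library left out the log2 change ranged from 0.27 (without tumor 2) to 4.04 (without control skin 1), and it was 1.86 without tumor 1. CD4 T cells had 0.709, 0.131, 0.172 and 0.847, where 9.53% were called, and Fcer1g was the 1 Fc receptor gene tested in each of these 3 types. Expressed against macrophages, Fcer1g in these cells was 0.305% to 8.03% and Lyz2 was 0.275% to 2.07%. The T cell gates also left out cells rich in Lyz2, which bounds its values. The part of free RNA in these values was not tested.

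**Figure D3:**
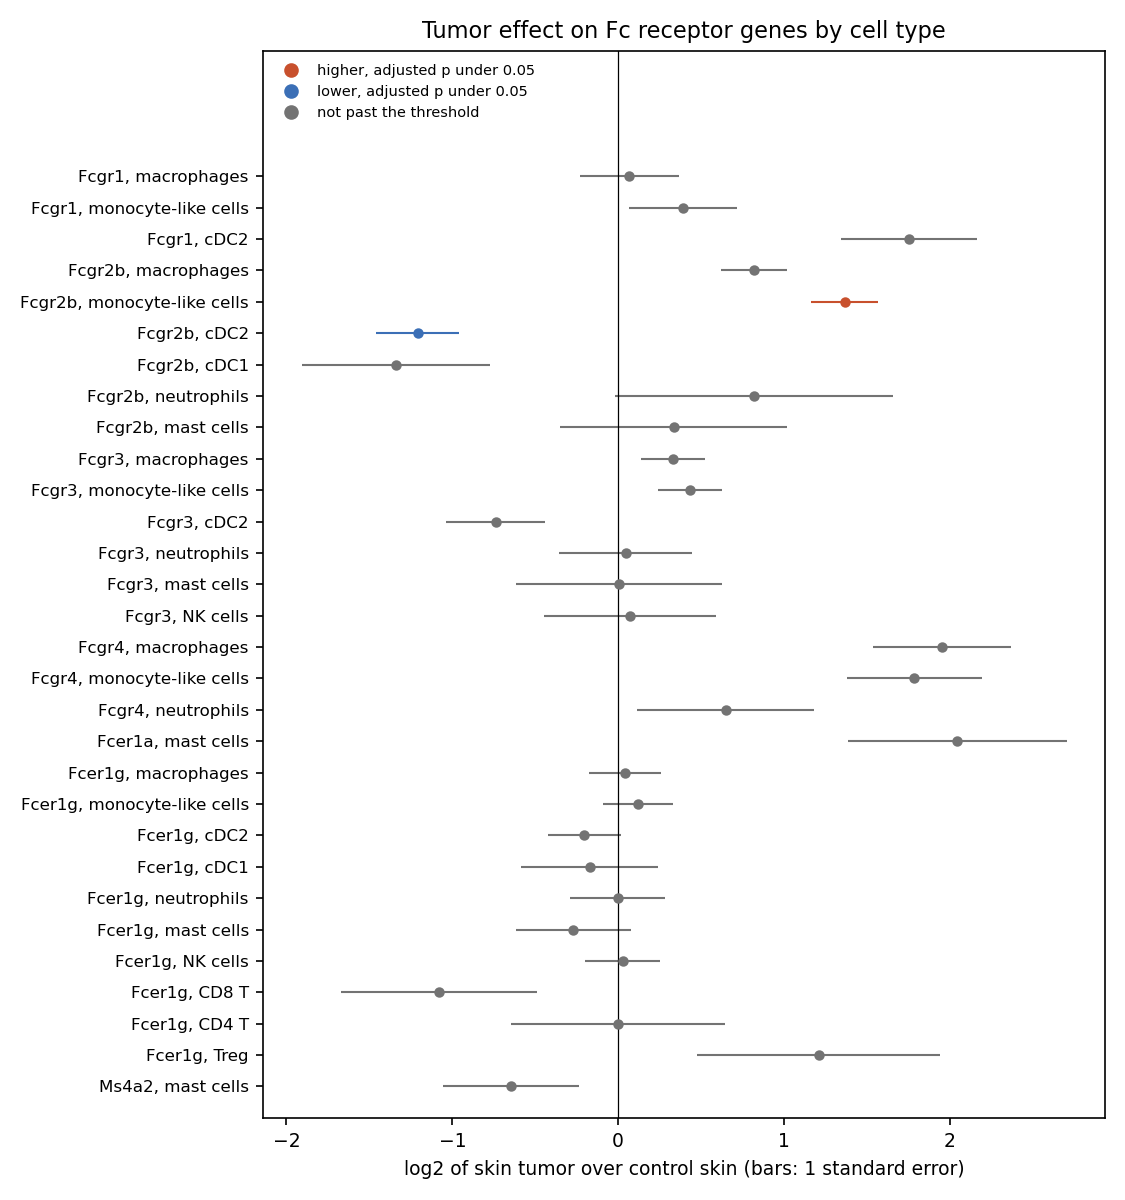
Log2 change of skin tumor over control skin for the 30 pairs of Fc receptor gene and cell type that passed the filter, as points with bars of 1 SE. The called pairs are Fcgr2b in monocyte-like cells at 1.37 and in cDC2 at -1.21, and the Fcer1g points lie near 0 in the myeloid types.

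Mast cells were the source of the IgE-binding chain Fcer1a and of Ms4a2, and the Fcer1a level was higher in both tumors without passing the test. Its level in mast cells was 2.46, 11.3, 29.7 and 18.0 UMIs per 10000, from 15, 150, 400 and 239 UMIs in 16, 33, 29 and 22 cells. Both tumors were above both control skins, and the control skins differed from each other by more than the tumors did on a ratio scale. The log2 change of 2.05 ± 0.66 (SE, n = 2 and 2) had an unadjusted p of 0.0150 and an edgeR adjusted p of 0.163, and 0 of the 5 Fc receptor genes tested in mast cells were called, against 2.47% of all genes. Over 13 alternatives, of which 5 passed the threshold, the log2 change ranged from 1.38 to 3.56. Both ends came from fits that left out a library.

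Counted cell by cell, Fcer1a was found in a minority of the mast cells of control skin and in nearly all of those of the tumors. It was seen in 37.5% of mast cells in control skin 1 (95% Clopper-Pearson interval 15.2% to 64.6%), 36.4% in control skin 2 (20.4% to 54.9%), 96.6% in tumor 1 (82.2% to 99.9%) and 100% in tumor 2 (84.6% to 100%). Median depths were 3059, 2983, 3855 and 4287.5 UMIs, and after thinning to 1000 UMIs the shares were 12.5%, 24.2%, 82.8% and 77.3%. The median cell held 0, 0, 9 and 8 UMIs of Fcer1a, and 1, 5, 27 and 18 cells held 3 or more. In the control skins the 5 highest cells held 93.3% of the UMIs in each library, with 84 in 1 cell of control skin 2, and in the tumors they held 49.5% and 47.3%. Macrophages, which should lack the gene, had a UMI in 0%, 0%, 0.214% and 0.466% of cells at 4 or more times the depth.

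Ms4a2, the beta chain of the same receptor, did not follow. Its level in mast cells was 4.93, 5.04, 3.20 and 2.03 UMIs per 10000, lower in both tumors, with a log2 change of -0.64 ± 0.41 (SE, n = 2 and 2) and an edgeR adjusted p of 0.45. A UMI was found in 56.2%, 75.8%, 69.0% and 59.1% of mast cells, and after thinning in 18.8%, 30.3%, 31.03% and 36.4%. With cells thinned, the log2 change was 0.080. The gap between the changes of Fcer1a and Ms4a2 within mast cells was not tested.

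Some properties of the mast cell gate moved with the group. The 4 Langerhans cell markers summed to 8.21 and 7.38 UMIs per 10000 in mast cells of control skins and to 0 and 0.0753 in tumors, where Cd207, Epcam and H2-M2 were at 0 in both. The 5 genes on the basophil list were Mcpt8, Prss34, Cd200r3, Gata2 and Hdc, and Gata2 was also on the mast cell list. They summed to 30.5, 33.4, 65.1 and 45.1, with Prss34 at 0 in every library but tumor 2 and Mcpt8 at 0 in control skin 1. These sums do not separate basophil RNA from mast cell RNA. Mcpt8 itself had 0, 1, 9 and 192 UMIs, the 192 all in 1 cell. Without the cells that held an Mcpt8 UMI, a choice made after seeing the data, Fcer1a was at 2.46, 10.7, 31.1 and 22.1 and was found in 37.5%, 34.4%, 100% and 100% of cells. Another 18, 18, 1 and 7 cells had mast cell markers but failed the gate because of markers of other types, and in them Fcer1a was at 1.41, 1.15, 23.2 and 10.4. Their median depths were 9970.5, 10763, 5595 and 3821 UMIs, against 3059, 2983, 3855 and 4287.5 in the gated mast cells. The part of these differences in the Fcer1a values was not tested beyond this.

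**Figure D4:**
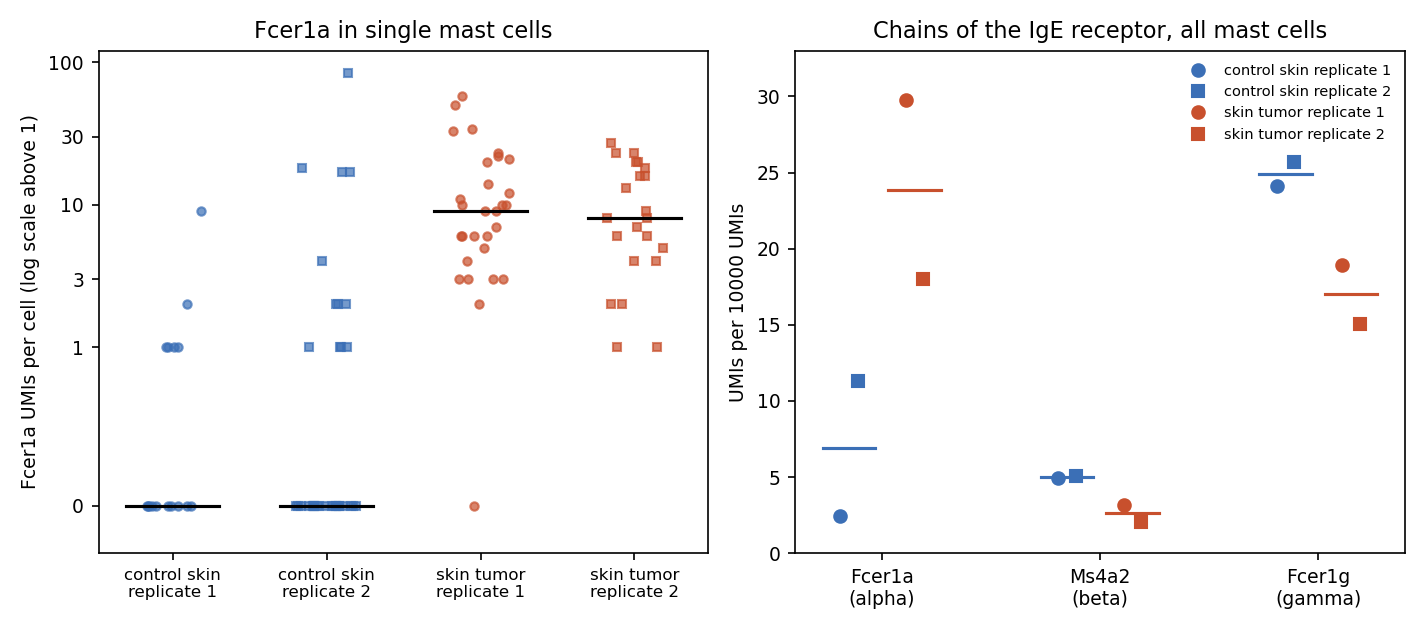
Chains of the IgE receptor in mast cells. One panel gives Fcer1a UMIs per mast cell in each library on a symmetric log axis, with medians of 0, 0, 9 and 8 UMIs, and the other gives the levels of Fcer1a, Ms4a2 and Fcer1g in UMIs per 10000 with 1 point per library, where Fcer1a is at 2.46 and 11.3 in control skins and 29.7 and 18.0 in tumors.

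Whether the tumor effect differed between cell types was tested directly by an interaction term against macrophages, with library as a block. Of 27 such tests of Fc receptor genes, 18 had at least 10 UMIs in every group. The effect on Fcgr2b in cDC2 was lower than that in macrophages by 2.05 ± 0.26 on the log2 scale (SE, edgeR adjusted p = 0.0199). It was the 1 gene called of 5 tested in that comparison, where 0.827% of all genes were called. It held in 7 of 8 alternatives and in each of the 4 fits that left out a library, and missed the threshold under stricter gates (-1.89, adjusted p = 0.0548). In the same comparison Fcgr3 differed by -1.10 ± 0.28 (adjusted p = 0.141), Fcgr1 by 1.67 ± 0.52 (adjusted p = 0.201) and Fcer1g by -0.25 ± 0.18 (adjusted p = 0.590), which were not called.

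None of the other comparisons with macrophages called an Fc receptor gene. For monocyte-like cells, where 0.343% of all genes were called, Fcgr2b differed by 0.56 ± 0.21 (edgeR adjusted p = 0.392) and Fcgr4 by -0.06 ± 0.33 (adjusted p = 0.989), so that the called change of Fcgr2b in monocyte-like cells is not shown to differ from that in macrophages. For neutrophils 0.105%, for NK cells 0.162% and for mast cells 1.67% of all genes were called, and the values for Fcgr3 were -0.13 ± 0.59, -0.26 ± 0.58 and -0.31 ± 0.61.

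Of 47 other genes of the Fc receptor pathway, in 5 lists, few were called in the myeloid types. The lists hold other antibody receptors, kinases and adaptors of the signal, inhibitors, other ITAM adaptors, and other receptors that pair with Fcer1g. In macrophages 0 of 38 tested genes were called and their median log2 change was 0.05, against 0.03 over all genes. In monocyte-like cells 1 of 31 was called, against 0.724% of all genes. It was Clec4n, a lectin receptor for fungal sugars that signals through Fcer1g. Its level was 0.656, 0.668, 1.94 and 2.85 UMIs per 10000, and its log2 change was 1.76 ± 0.26 (edgeR adjusted p = 0.0266). In macrophages Clec4n was at 0.675, 0.406, 2.38 and 3.09, with a log2 change of 2.19 ± 0.30 that missed the threshold (adjusted p = 0.0531).

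In cDC2, 2 of 30 tested pathway genes were called, both lower in tumors, against 4.61% of all genes, so that the share is close to the background. Fcrls, an Fc receptor-like gene, was at 1.60, 1.14, 0.0334 and 0.0397 UMIs per 10000, a log2 change of -5.39 ± 0.40 (edgeR adjusted p = 0.00165), and Cd247, an ITAM chain best known from the T cell receptor, was at 0.149, 0.204, 0.0223 and 0.0132 (adjusted p = 0.0286). T cell markers in cDC2 moved with Cd247, with sums of 0.0746, 0.146, 0.0334 and 0.0132 over 4 genes, and their part in its change was not tested. Fcrls was also lower in both tumors in macrophages, with 1.46, 1.99, 0.689 and 0.837, where it was not called (adjusted p = 0.0959). Syk, the kinase downstream of Fcer1g, was at 5.01, 6.57, 3.13 and 3.43 in cDC2 and was not called (adjusted p = 0.0716).

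In cDC1, 2 of 26 were called, against 5.38% of all genes, and both were lower: the kinase Fyn with a log2 change of -1.43 (edgeR adjusted p = 0.0230) and the adaptor Gab2 with -1.03 (adjusted p = 0.0479). Neutrophils (22 tested), mast cells (15) and NK cells (21) had 0 called. In mast cells the largest change among the named genes was that of the inhibitory receptor Lilrb4a, at 0.164, 0.301, 0.892 and 0.980, with an adjusted p of 0.132.

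In the T cell types, where most Fc receptor genes did not pass the filter, pathway genes were called at shares near those of all genes or could not be read as changes. In CD8 T cells 3 of 23 were called, against 11.1% of all genes, and all 3 were lower in tumors, the adaptors Lat (-1.01) and Lcp2 (-0.82) and the phosphatase Inpp5d (-0.94), with edgeR adjusted p from 0.0246 to 0.0474. In CD4 T cells Inpp5d was lower (-1.27, adjusted p = 0.0104), and Cd247 (1.09, adjusted p = 0.0140) and Lilrb4a were higher, which makes 3 of 22 against 9.53% of all genes. In Treg 1 of 19 was called against 4.22% of all genes, Lilrb4a, which had 0 UMIs in both control skins and passed the filter through the tumors alone, so that no change is read from it.

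Over 52 pairs of library and cell type, the genes whose levels ran most like each Fc receptor gene were sought among 5124 genes by Pearson's correlation of log2 levels, as a description, since the points share libraries and cell types. Fcer1a ran with the mast cell receptors Mrgprx2 (r = 0.979) and Mrgprb2 (0.978) and the tryptase Tpsab1 (0.973), and Ms4a2 with Krt4 (0.989), Mrgprb2 (0.984) and Maob (0.979). Fcgr1 ran with Nupr1 (0.920), Msr1 (0.898) and Gab1 (0.868), and Fcgr2b with Parvb (0.877), BC028528 (0.842) and Cxcl16 (0.833). For Fcgr3 the genes were Lrmda (0.901), Sdcbp (0.882) and Atp6v1a (0.878), and for Fcgr4 they were Klra2 (0.895), Gm5150 (0.886) and Sirpb1c (0.882). Fcer1g ran with Tyrobp (0.836), the other common ITAM adaptor of myeloid cells, Gab2 (0.833) and Cers6 (0.827). Between the Fc receptor genes themselves r was 0.956 for Fcer1a and Ms4a2 and 0.739 for Fcgr1 and Fcgr4.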

How the data were processed

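The files hold UMI counts for each gene and cell of 4 droplet libraries, which the authors deposited unnormalized, as called by Cell Ranger on mouse genome mm10 (7.1.0 per the labels, 7.0.1 per the file headers). Following the methods of the study, cells needed 100 genes, 1000 UMIs, a mitochondrial share of 15% or less and 0.8 or more for log10 genes over log10 UMIs. Doublets were scored with Scrublet, not with scDblFinder as in the study, and the highest scores (1% per 1000 cells) were removed. Cell types were gated on marker UMIs, without clustering (Python 3.11.15, scanpy 1.11.5). UMIs were summed per library and type and tested with edgeR 4.0.16 in R 4.3.3 (TMM, filterByExpr, quasi-likelihood test), and DESeq2 1.42.0 was an alternative. Tests were checked on simulated counts with 200 genes changed by 2 on the log2 scale. Of these, 52.5% were recovered in mast cells and in neutrophils, 62.5% in macrophages and 86.5%, the most, in NK cells. False calls numbered from 1 in mast cells to 22 in CD8 T cells. Intervals are Clopper-Pearson at 95%, and intervals and floors (3 counts) cover counting error only. A few items of the study are not reported here. The labels tie the replicate numbers to no shared animal or day. In the pathway lists, genes are named from the 4 with the smallest adjusted p per type. The genes, gates and lists were chosen with earlier results of these data known.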

Additional observations from a re-analysis of the deposited data

Results flagged for a closer look

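The tumor effect on Fcgr2b differed between cDC2 and macrophages by -2.05 on the log2 scale in the interaction test (edgeR adjusted p = 0.0199). It was singled out because the effects of 2 cell types under the same contrast differed by a test of the difference itself. The levels were 2.14 and 2.46 UMIs per 10000 in control cDC2 and 0.996 and 1.18 in tumor cDC2, and 2.58 and 2.65 in control macrophages and 5.96 and 4.65 in tumor macrophages, so that the groups did not overlap in either type. With 2 libraries per group, single libraries were not examined as outliers.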

How the results depend on the processing

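The pairs of Fc receptor gene and cell type called in tumor against control skin were 2 in the reported fit, both of them Fcgr2b. There were 5 such pairs with DESeq2, 10 with no filter on low counts, 1 under stricter gates and 1 with cells thinned to 1000 UMIs. The shares called over all genes were 4.25%, 3.76%, 4.78%, 3.53% and 4.62%, in the same order from the reported fit on. Leaving out a library gave 0 (either control skin), 8 (tumor 1) or 11 (tumor 2) calls. Over all genes of the 10 types, calls numbered 2829 in the reported fit, 2431 with DESeq2, 7297 with no filter, 1825 under stricter gates, 723 on thinned cells, and 503, 1001, 3196 and 6764 without control skin 1, control skin 2, tumor 1 and tumor 2. Interaction tests that called an Fc receptor gene, 1 in the reported fit, were 3 with no filter and 0 under stricter gates. With the replicate number as a block there were 2 calls again, Fcgr2b in monocyte-like cells (adjusted p = 0.0466) and in cDC1 (adjusted p = 0.00231), and Fcgr2b in cDC2 was not among them (adjusted p = 0.0596). The numbers are shared names only: deviations of same-numbered libraries correlated at -0.10 to 0.11 over the 10 types. Because 1 type, Treg, lay just under -0.1, the numbers were also crossed, after seeing the data, which gave 8 calls, while calls over all genes rose to 4745 from 2829 (3086 with the block).

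Of 232 values of 19 single changes, 191 kept direction and side of the threshold, 27 came to pass it, 7 no longer passed it and 7 reversed, none of them called. Fcgr3 in cDC2 turned to 0.38 under stricter gates, where its difference from macrophages turned to 0.024, and Ms4a2 in mast cells to 0.080 on thinned cells. With a library left out, Fcgr1 in monocyte-like cells ranged from -0.025 (without control skin 1) to 1.21, Fcgr2b in neutrophils from -0.096 (without tumor 2) to 6.99, a fit against a lone control at 0, Fcgr2b in mast cells from -0.39 (without control skin 2; -0.25 without tumor 2) to 0.97, and Fcer1g in mast cells from -0.58 to 0.049 (without tumor 2). Of 100 levels, 43 moved by more than the spread of the libraries on thinned cells and 20 under stricter gates. The causes were not tested. The smallest libraries held 11 neutrophils, 13 cDC1 and 16 mast cells, and 40 pairs of gene and cell type had too few UMIs to test.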

Other observations

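In tumor 1 and tumor 2, mature dendritic cells (56 and 16 cells) held Fcgr2b at 0.196 and 0.292 UMIs per 10000, below its level in cDC2 of the same libraries. Dermal γδ T cells of the control skins (27 and 34 cells) held Fcer1g at 4.24 and 0.848, and type 2 innate lymphoid cells at 0.551 and 0.502, against 14.3 and 13.1 in DETC of the same libraries. No cell passed the basophil gate alone in any library, and cells that passed more than 1 gate were assigned to no type.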
